A study of Mus musculus with 24 samples.

Results

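The 10 genes described here are markers of Kupffer cells, the macrophages that live in the sinusoids of the liver: Clec4f, Vsig4, Marco, Timd4, Cd5l, Adgre1, C1qa, C1qb, C1qc and Csf1r. They were taken by name from the 18820 genes that the arrays measured with a probe set assigned to a single gene, and each of the 10 had 1 such probe set. Gene expression was measured in whole liver of 24 male mice on a C57Bl/6 background (C57BL/6J in the labels), 4 to 6 months old, with 1 Affymetrix Mouse Gene 1.1 ST array for each mouse. For 7 weeks the mice received a high-fat diet with 45% of its energy as fat, and the source of the fat set the groups. Each group had 8 mice. Soy oil that had been partially hydrogenated supplied the fat of the Trans group, cocoa butter that of the Saturated group, and a mix of canola oil with palm olein that of the Cis group. All 3 groups were thus fat-fed, and a group on a low-fat diet was not analysed here. The comparisons ask whether the kind of fat changed the RNA level of these markers in the liver.

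Kupffer cells remove bacteria, immune complexes, worn red cells and apoptotic cells from portal blood. They depend on CSF1 receptor signaling for survival, and signals from the neighboring endothelial and stellate cells and from hepatocytes keep up their identity. In fatty liver disease in mice, resident Kupffer cells can be lost in part and replaced by macrophages that come from blood monocytes and at first lack Timd4 and Clec4f. The values below come from RNA of the whole liver, so fewer Kupffer cells and less RNA per cell cannot be told apart.

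PU.1, the product of Spi1, is the factor that macrophages share as a master regulator, and it binds purine-rich sites with the core GAGGAA. Promoters from 250 bases before to 50 bases after the gene start were in the RefSeq table (build GRCm38.p6) for 7 of the 10 markers, namely Marco, Cd5l, C1qb, C1qc, Clec4f, Timd4 and Vsig4. The 6 letters GAGGAA, searched on both strands, were found in 5 of these 7 promoters, and 28.3% of all 32851 promoters of the same length in the table hold them. The stretches of 60 bases that contain the match are printed below. The markers varied together among livers, as described further on, and a link of these letters to that variation was not tested. Each is read 5′ to 3′ on the strand of its gene, and the capitals mark the match, which is written TTCCTC where the core lies on the opposite strand.
Marco (chr1:120505138-120505197, minus strand): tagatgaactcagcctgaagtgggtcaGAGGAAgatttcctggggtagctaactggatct
Cd5l (chr3:87357788-87357847, plus strand): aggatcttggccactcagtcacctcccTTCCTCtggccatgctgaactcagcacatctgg
C1qb (chr4:136886201-136886260, minus strand): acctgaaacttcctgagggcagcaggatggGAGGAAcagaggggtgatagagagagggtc
C1qc (chr4:136893075-136893134, minus strand): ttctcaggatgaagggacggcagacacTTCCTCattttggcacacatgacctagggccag
Vsig4, farther from the start (chrX:96293561-96293620, minus strand): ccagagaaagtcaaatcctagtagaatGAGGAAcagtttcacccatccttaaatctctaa
Vsig4, nearer to the start (chrX:96293459-96293518, minus strand): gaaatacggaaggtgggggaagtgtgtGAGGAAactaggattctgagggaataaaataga

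The match began 146 bases before the start of Marco, 66 bases before that of Cd5l, 30 before that of C1qb and 193 before that of C1qc. The Vsig4 promoter held 2 matches, which began 155 and 53 bases before the start. The Clec4f and Timd4 promoters did not hold these letters in the window. Neither TGAGTCA, the AP-1 site, which 5.2% of the searched promoters hold, nor CACGTG, the E-box, which 7.15% hold, was found in any of the 7. A match describes letters and is not a measured binding site. C1qb, C1qc and C1qa lie next to each other in this order on chromosome 4, with no other gene of the table between them.

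The arrays themselves were similar. The median log2 value of an array ran from 2.94 to 3.056, and no pair of arrays was identical. The deposited values are normalized intensities on the log2 scale, and the signals given below are the same values on a linear scale in arbitrary units. Probe sets differ in how brightly they bind, so levels are compared between livers and not between genes. Each marker had a geometric mean signal over 20, a level that 8298 of the 18820 genes passed.

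None of the 10 markers differed between the diets after adjustment for all probe sets in any of the 3 comparisons. By limma with Benjamini-Hochberg adjustment over 35556 probe sets, 0.00844% of all probe sets passed an adjusted p of 0.05 for Trans against Saturated (3 probe sets), 0.00281% for Trans against Cis (1 probe set) and 0% for Cis against Saturated. The means were nevertheless ordered in much the same way from gene to gene. In 9 of the 10 markers the mean of the Trans group was below that of the Saturated group, and in 10 of 10 the mean of the Cis group was below that of the Saturated group. As the markers varied together from liver to liver, these counts do not stand for 10 separate observations.

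**Figure D1:**
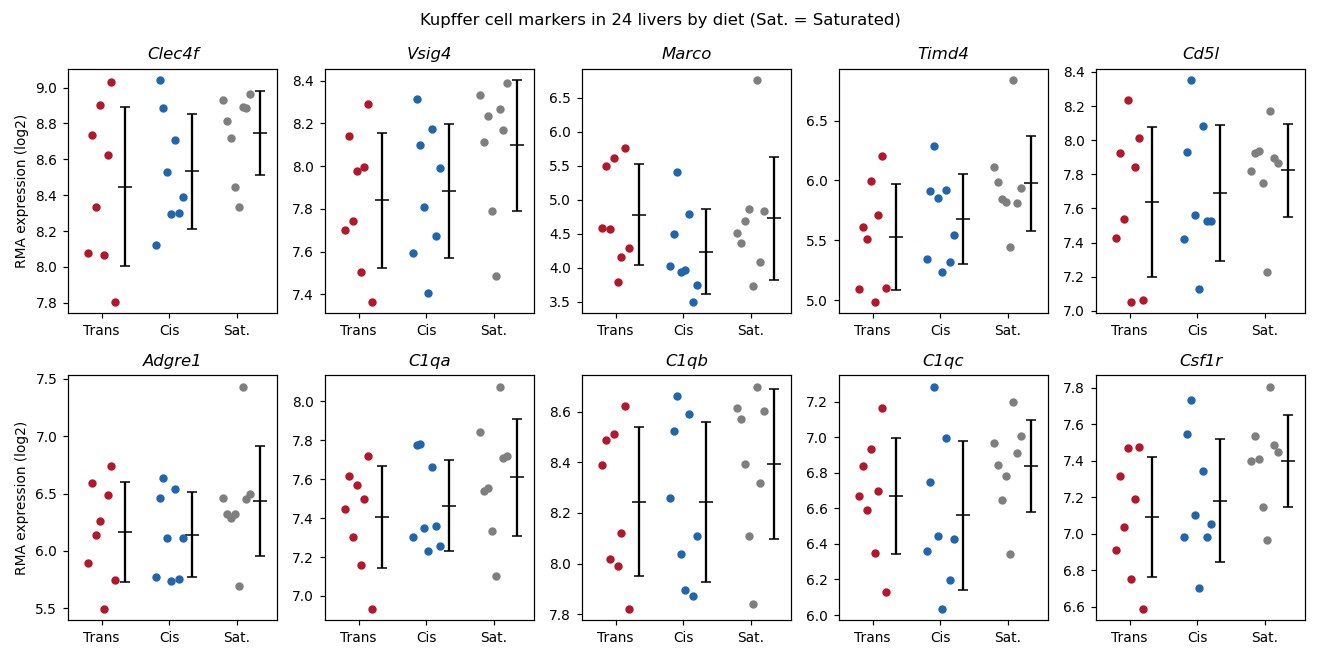
RMA expression (log2, vertical axes with a separate range for each gene) of the 10 markers in the 8 livers of each diet (horizontal axis); a point is a liver and the bar gives the mean ± SD. In each gene the 3 groups overlap, and the highest Marco, Timd4 and Adgre1 points are all Saturated replicate 6.

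Clec4f encodes a C-type lectin that in mice is restricted to Kupffer cells. Its signal ran from 223 to 523 in the Trans group with a median of 359, from 278 to 528 in the Cis group with a median of 352, and from 323 to 499 in the Saturated group with a median of 462. The groups overlapped, and the lowest 3 Trans livers, replicates 8, 5 and 1, lay below each liver of the Cis and Saturated groups. Mean signals were 363 ± 109, 379 ± 86.8 and 435 ± 65.8 in the Trans, Cis and Saturated groups (SD, n = 8 each). The log2 difference of Trans minus Saturated was -0.30, a 1.23-fold lower level, with a standard error of 0.164 and a 95% interval from -0.64 to 0.04 (limma, adjusted p = 0.722). In 6 of 8 Trans livers Clec4f was below the Saturated mean.

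Timd4 encodes a receptor for phosphatidylserine, the lipid that apoptotic cells expose, and it marks Kupffer cells of embryonic origin. Its signal was 31.6 to 73.7 in the Trans group (median 47.2), 37.6 to 78.0 in the Cis group (median 52.3) and 43.6 to 115 in the Saturated group (median 59.3). Saturated replicate 6 stood highest with 115, followed by Cis replicate 3 with 78.0, and the 3 groups overlapped. Among the markers Timd4 had the largest share of its variance between diets, 19.4%. The log2 difference of Trans minus Saturated was -0.45 with a 95% interval from -0.85 to -0.05, a 1.37-fold lower level. The adjusted p was 0.623 (limma). Timd4 was the only marker under 0.05 before adjustment, and 7.32% of all probe sets reached that level in this comparison. For Trans against Cis and for Cis against Saturated 0 markers reached it, with 6.16% and 6.57% of all probe sets. Cis minus Saturated was -0.30 (adjusted p = 0.848, limma) and Trans minus Cis was -0.15 (adjusted p = 0.948, limma).

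The count of markers at this unadjusted level turned on single livers for Trans against Saturated. It was 0 without Trans replicate 1, 5 or 8 or Saturated replicate 6, 2 without Trans replicate 2, Cis replicate 2, 3 or 5 or Saturated replicate 4, 3 without Trans replicate 4, 4 without Trans replicate 7 and 5 without Saturated replicate 5. Of all probe sets, 6.4% (without Saturated replicate 6) to 7.8% (without Saturated replicate 2) were at this level in these fits. The count of markers after adjustment was 0 with each of the 24 livers left out in turn. At most 16 of the 35556 probe sets were then called, without Saturated replicate 2.

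Marco encodes a scavenger receptor of class A that binds bacteria and particles, and it differed from the other markers in its spread. Its signal was 13.8 to 54.4 in the Trans group (median 23.8), 11.3 to 42.3 in the Cis group (median 16.0) and 13.3 to 109 in the Saturated group (median 24.2). Across the 24 livers this was a 9.66-fold range, from Cis replicate 7 to Saturated replicate 6. In the Trans group, replicates 7, 4 and 2 had signals of 54.4, 49.1 and 45.1, above each other liver of the series except Saturated replicate 6. Marco was the single marker with a higher mean log2 value in the Trans than in the Saturated group, by 0.05 with a 95% interval from -0.69 to 0.80 (limma, adjusted p = 0.987). Without Saturated replicate 6 this difference was 0.35, and it fell below 0 without Trans replicate 2, 4 or 7 or Saturated replicate 5 or 7, with a lowest value of -0.09. Trans minus Cis was 0.55 with an interval from -0.20 to 1.30 (limma, adjusted p = 0.852), with 6 of 8 Trans livers above the Cis mean.

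Vsig4 encodes the complement receptor CRIg, which binds C3b-coated particles and restrains T cell activation. Signals of 165 to 313 were measured in the Trans group (median 233), 170 to 318 in the Cis group (median 240) and 179 to 335 in the Saturated group (median 294). The ranges of the 3 groups nearly coincided at both ends. Trans minus Saturated was -0.26 (95% interval -0.57 to 0.05, limma adjusted p = 0.755), and Cis minus Saturated was -0.21 (interval -0.53 to 0.10, limma adjusted p = 0.858).

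Cd5l encodes a secreted protein of the scavenger receptor family, also known as AIM, that macrophages release into plasma. It had the smallest share of its variance between the diet means, 4.76%. Signals ran from 133 to 301 in the Trans group (median 208), from 140 to 327 in the Cis group (median 187) and from 150 to 289 in the Saturated group (median 236). Within the Saturated group 7 of the livers lay between 215 and 289, and replicate 5 stood alone at 150. The log2 difference of Trans minus Saturated was -0.19 (interval -0.56 to 0.18, limma adjusted p = 0.888).

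Adgre1 encodes F4/80, an adhesion receptor used to stain mouse macrophages. Its signal was 45.0 to 107 in the Trans group (median 73.4), 53.4 to 99.4 in the Cis group (median 69.2) and 51.6 to 173 in the Saturated group (median 84.0). Saturated replicate 6 was at 173 and the next liver of its group at 90.4, so that the higher mean of this group rested in part on 1 liver. Trans minus Saturated was -0.27 (interval -0.69 to 0.16, limma adjusted p = 0.835), and -0.12 without Saturated replicate 6.

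The A, B and C chains of C1q, the molecule that opens the classical pathway of complement, are made in large part by macrophages. C1qa signals were 122 to 210 in the Trans group (median 178), 150 to 220 in the Cis group (median 163) and 137 to 270 in the Saturated group (median 199). C1qb signals were 226 to 394, 235 to 406 and 229 to 416 in the same order, with medians of 307, 291 and 358. For C1qc the signals were 70.0 to 143, 65.5 to 156 and 81.3 to 147, with medians of 103, 86.5 and 118. In all 3 chains the Saturated group had the highest median and the groups overlapped over most of their range. Trans minus Saturated was -0.20 for C1qa, -0.15 for C1qb and -0.17 for C1qc, with limma adjusted p-values between 0.789 for C1qa and 0.892 for C1qc. Trans and Cis had nearly the same mean for C1qb, 8.24 on the log2 scale in both, with a difference of 0.00 (interval -0.30 to 0.30).

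Csf1r encodes the receptor for CSF1 and IL-34 on which Kupffer cells depend. Signals were 96.2 to 178 in the Trans group (median 139), 104 to 213 in the Cis group (median 135) and 125 to 224 in the Saturated group (median 172). Of the 8 Trans livers, 6 were below the Saturated mean, and replicates 8, 5 and 1 were below each Saturated liver. Trans minus Saturated was -0.31 with an interval from -0.61 to 0.00 (limma adjusted p = 0.682). Cis minus Saturated was -0.22 (interval -0.52 to 0.09, limma adjusted p = 0.849).

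**Figure D2:**
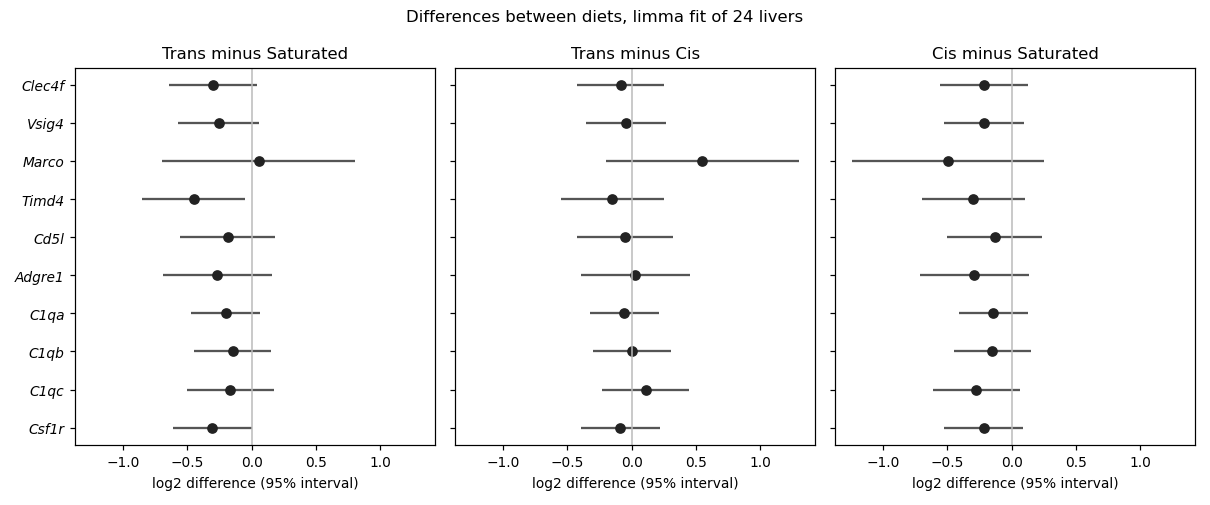
Log2 differences between diets from the limma fit of all 24 livers (horizontal axes) for the 10 markers (vertical axis); points are estimates and lines are unadjusted 95% intervals. Against Saturated most points lie left of 0, while only the Timd4 interval for Trans minus Saturated, -0.85 to -0.05, lies apart from 0.

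Over the 10 markers, the median log2 difference was -0.23 for Trans minus Saturated, -0.05 for Trans minus Cis and -0.22 for Cis minus Saturated, while over all genes it was 0.0038, 0.0013 and 0.0036. A higher mean in the first-named group was found in 1, 4 and 0 of the 10 markers in these comparisons, and in 49.9%, 48.9% and 51.3% of all probe sets. The direction of Trans minus Cis therefore differed between markers and depended on the livers taken, as the count of 4 became 2 without Trans replicate 2 or 7 or Cis replicate 5 or 7, and 8 without Trans replicate 8. The median for Trans minus Saturated was -0.14 without Saturated replicate 6 and -0.31 without Saturated replicate 5. The comparisons with Saturated share its 8 livers. An F test over the 3 diets had its smallest p among the markers for Timd4, 0.0827 (limma adjusted p = 0.745), with 7.14% of all probe sets under 0.05 and 0.00281% past the adjusted threshold.

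Most of the variation in the markers lay between mice on the same diet. The share of a marker's variance that lay between the diet means was 4.76% to 19.4%. Such a share is above 0 also where diets do not differ, and the smallest F-test p of a marker was 0.0827 (limma, unadjusted). The SD within diets, pooled over the 3 groups, ran from 0.27 on the log2 scale for C1qa to 0.77 for Marco. It was above the median of 0.17 over the 8298 genes with a signal over 20 in 10 of 10 markers, and above the upper quartile of 0.23 as well. From the lowest to the highest of the 24 livers, C1qb spanned 1.84-fold, Clec4f 2.36-fold, Timd4 3.63-fold and Adgre1 3.84-fold.

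The same livers were high or low in marker after marker. Saturated replicate 6 was the highest of all 24 livers in 6 markers (Marco, Timd4, Adgre1, C1qa, C1qb and Csf1r) and among the highest 8 in 10 of 10. Saturated replicate 5 was the lowest liver of its diet in 10 of 10. In the Trans group, replicate 7 was the highest of the 8 livers in 9 markers, and replicates 8 and 5 were among the lowest 3 in 10 of 10. In the Cis group, replicate 3 was the highest in 8 markers and replicate 5 the lowest in 7. High and low livers thus occurred in each diet. As a mean over the 10 markers, each taken relative to its own mean, the livers ran from -0.57 in Trans replicate 8 to 0.77 in Saturated replicate 6 on the log2 scale.

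**Figure D3:**
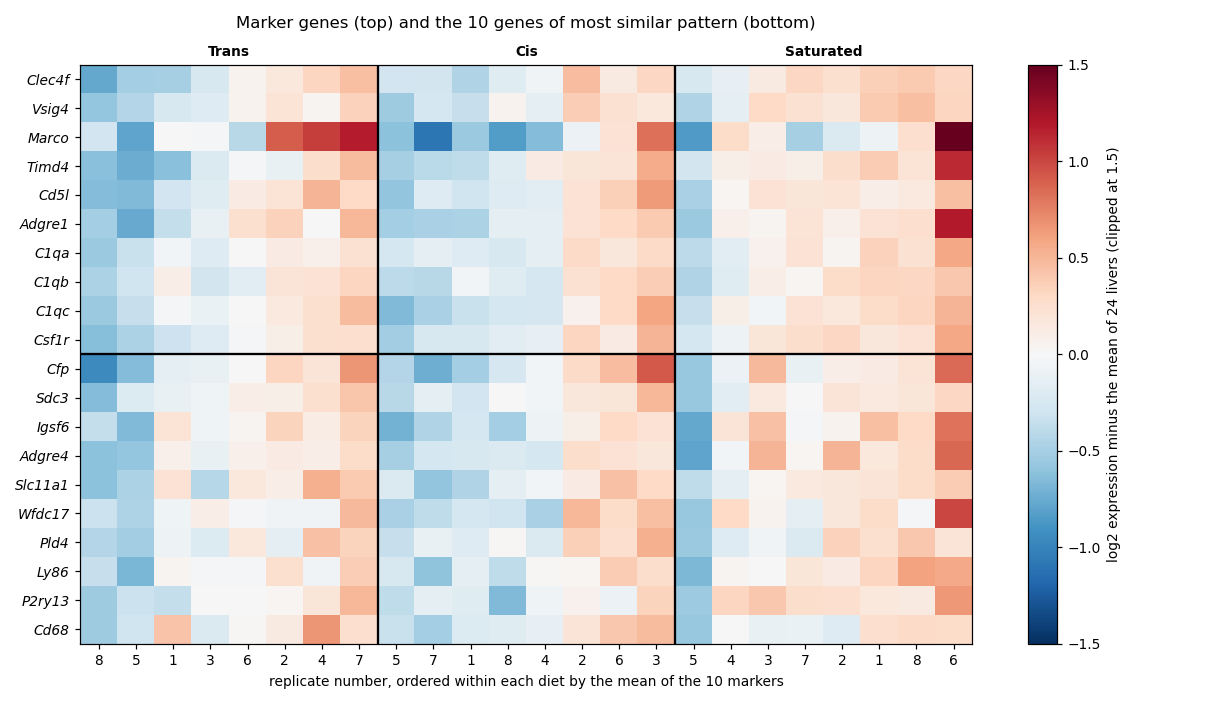
Log2 expression minus the mean of the 24 livers (color, limited to 1.5 in either direction) for the 10 markers and, below the line, the 10 genes of most similar pattern; columns are livers, ordered within each diet by the mean of the markers. Within each diet the rows shift together from blue to red, with Trans replicate 8 (-0.57 as mean over the markers) and Saturated replicate 6 (0.77) at the ends. For the lower rows this shift follows from how the genes were chosen and the columns ordered.

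With the diet means taken off, all 45 pairs of markers were positively correlated over the 24 livers. Pearson's r ran from 0.587 to 0.958 with a median of 0.853, and Spearman's rho had a median of 0.877. In each of the 45 pairs the permutation test (100000 resamples within diet, two-sided, Benjamini-Hochberg adjustment over the 45 pairs) gave an adjusted p under the threshold of 0.05, both for r and for rho. The closest pair was Cd5l and Csf1r, with r = 0.958 and rho = 0.952 (permutation p = 1e-05 for each, the smallest that the resamples can give, adjusted p = 1.6e-05 for r and 1.4e-05 for rho). Timd4 and Adgre1 followed with r = 0.925 and rho = 0.921, at the same p-values. The 3 C1q chains, whose genes are neighbors, had r = 0.893 for C1qa and C1qb, 0.883 for C1qa and C1qc and 0.902 for C1qb and C1qc. These values lay within the range that markers on different chromosomes reached with each other.

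Csf1r had the highest median r with the other 9 markers, 0.902, and Marco the lowest, 0.756. Marco was in both pairs with r under 0.7, which were Vsig4 and Marco (r = 0.587, permutation p = 0.00519, adjusted p = 0.00519, rho = 0.648) and Clec4f and Marco (r = 0.615, permutation p = 0.0015, adjusted p = 0.00153, rho = 0.613). The 36 pairs without Marco had r of at least 0.757. The relation was also present inside each diet. The median r over the 45 pairs was 0.881 within the Trans group, 0.888 within the Cis group and 0.849 within the Saturated group, with the lowest single value, 0.357, for Clec4f and Marco in the Saturated group. It was 0.811 when, for each pair, the 2 livers farthest from the median of the marker listed first were left out. Without Saturated replicate 6 the median r was 0.875. How typical an array was, taken as its median correlation to the rest, had r = -0.167 with the mean of the markers.

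Outside the 10 markers, the genes whose levels followed the mean of the markers most closely over the 24 livers, with diet means taken off, were Cfp (r = 0.945), Sdc3 (0.917), Igsf6 (0.873), Adgre4 (0.873), Slc11a1 (0.861), Wfdc17 (0.854), Pld4 (0.849), Ly86 (0.842), P2ry13 (0.835) and Cd68 (0.835). Cfp encodes properdin, which stabilizes the alternative complement convertase, Slc11a1 a metal transporter of phagosomes, Ly86 the partner of a Toll-like receptor homolog, and Cd68 a lysosomal glycoprotein of macrophages. Among the 8288 other genes with a signal over 20, r had a median of 0.0131, was over 0.8 in 23 and over 0.6 in 110, and its lowest value was -0.709. Cfp had r = 0.964 within the Trans group, 0.964 within the Cis group and 0.910 within the Saturated group. These are the upper end of many genes and are given as a description.

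Lists of genes of Kupffer cells, of other cell types and of partner molecules were set beside the markers, and 0 genes of these lists were called in any comparison (limma, Benjamini-Hochberg adjustment). Genes of a list can vary together as well (median r between pairs 0.0212 to 0.602). Counts within a list are therefore not separate observations. Of 16 other Kupffer cell genes, 13 had a lower mean in the Trans than in the Saturated group and 15 had a lower mean in the Cis than in the Saturated group, with median log2 differences of -0.15 and -0.17. Before adjustment, 4 of the 16 were under a p of 0.05 for Trans against Saturated, all 4 lower in Trans, against 7.32% of all probe sets in either direction. Tlr4, the endotoxin receptor, had a signal of 8.83 to 12.5 in the Trans group (median 10.5), 8.32 to 14.4 in the Cis group (median 11.6) and 11.7 to 19.5 in the Saturated group (median 13.8). Each of these values is under the signal of 20 used above to set faint genes apart, and at this faint level the Trans minus Saturated difference was -0.47 (limma adjusted p = 0.281). Its r with the mean of the markers was 0.324. Cd163, the hemoglobin scavenger receptor, had -0.49 (limma adjusted p = 0.491). The mean of the 16 genes had r = 0.916 with the mean of the markers.

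Of 11 macrophage transcription factors, 9 had a lower mean in the Cis than in the Saturated group, and 3 of these were under a p of 0.05 before adjustment, against 6.57% of all probe sets in either direction. Spic, which drives the iron-recycling program of red pulp macrophages and is also found in Kupffer cells, had signals of 16.2 to 32.4 in the Trans group (median 19.6), 11.8 to 25.1 in the Cis group (median 21.3) and 20.1 to 49.2 in the Saturated group (median 27.6). Its log2 difference was -0.52 for Trans minus Saturated (limma adjusted p = 0.545) and -0.61 for Cis minus Saturated (limma adjusted p = 0.595). Its r with the mean of the markers, 0.805, was the highest of this list, while Spi1 had 0.595. Among 8 ligands of the Kupffer cell niche, including Csf1 and Il34, the ligands of Csf1r, 0 genes were under a p of 0.05 before adjustment for Trans or Cis against Saturated (7.32% and 6.57% of all probe sets), and 1 of 8, Il34, was for Trans against Cis (6.16% of all probe sets). For Trans minus Saturated the difference was 0.23 for Csf1 (limma adjusted p = 0.722) beside -0.31 for Csf1r. Il34 differed by 0.29 for Trans minus Cis (limma adjusted p = 0.773) and by 0.23 for Trans minus Saturated (limma adjusted p = 0.698), but it was a faint gene with signals of 5.19 to 10.5 over all livers.

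The partners of C1q in the complement cascade, several of which hepatocytes make, did not share the pattern. The mean of 7 such genes had r = 0.0719 with the mean of the markers, and C1s1, which encodes a protease of the C1 complex, had r = -0.434. Of 13 genes for clearance of apoptotic cells, the process in which Timd4 takes part, 7 had a higher and 6 a lower mean in the Trans than in the Saturated group. Gas6, a bridge between phosphatidylserine and the TAM receptors, had a difference of 0.48 (limma adjusted p = 0.624), and its receptor Mertk had -0.15 (limma adjusted p = 0.695).

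Genes that macrophages share with other white blood cells moved along with the markers among livers. The mean of 11 common macrophage genes had r = 0.795 and that of 7 pan-leukocyte genes r = 0.770 with the mean of the markers, and in both lists each gene had a lower mean in the Cis than in the Saturated group. Before adjustment, 1 of the 11 and 2 of the 7 were under a p of 0.05 in that comparison (6.57% of all probe sets in either direction). Ptprc, the CD45 gene of all leukocytes, had a Cis minus Saturated difference of -0.45 (limma adjusted p = 0.576), and Cd52 one of -0.67 (limma adjusted p = 0.596). The part of other leukocytes in the marker values was not tested. Of 10 genes of recruited and lipid-associated macrophages, 3 had a signal over 20, namely Lpl, Cd9 and Fabp5. The mean of the 10 genes, 7 of them under a signal of 20, had r = -0.162 with the mean of the markers. Among the 3 brighter genes, Lpl, which encodes lipoprotein lipase and was named after its value was seen, had r = 0.682, Cd9 -0.0135 and Fabp5 -0.118. Against Saturated, 8 of the 10 genes had a higher mean in the Trans group (median log2 difference 0.11). Against Cis, 8 of the 10 had a higher mean in the Trans group (median 0.25). Before adjustment, 2 of the 10 were under a p of 0.05 against Cis, both higher in Trans (6.16% of all probe sets in either direction). Against Saturated it was 1 of the 10 (7.32% of all probe sets), namely Fabp5, which was lower in Trans. Fabp5 had a Trans minus Saturated difference of -1.04 (limma adjusted p = 0.625). The gene of this fatty acid binding protein had 3 single-gene probe sets, and the values are of the brightest. Its signals were 19.2 to 85.5 in the Trans group (median 39.9) and 8.57 to 48.7 in the Cis group (median 28.1). In the Saturated group they ran from 12.1 to 184 (median 107), so that the groups overlapped. The Cis minus Saturated difference of Fabp5 was -1.70 (limma adjusted p = 0.502). Ccr2, the receptor of blood monocytes, had signals between 3.91 and 13.1 over all livers. For dendritic cells 0 of 7 genes and for lymphocytes and neutrophils 0 of 12 genes had a signal over 20.

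Of the other cells of the liver, sinusoidal endothelial cells line the vessels in which Kupffer cells sit. The mean of 10 endothelial genes had r = 0.566 with the mean of the markers, but the order of the diets was another, as 8 of 10 had a higher mean in the Trans than in the Saturated group and 10 of 10 had a higher mean in the Trans than in the Cis group. Before adjustment, 2 of the 10 were under a p of 0.05 in each of these comparisons, all higher in Trans (7.32% and 6.16% of all probe sets in either direction). Clec4g, a lectin of endothelial cells, had a Trans minus Cis difference of 0.32 (limma adjusted p = 0.55). Stellate cell genes had r = 0.319 as a mean of 7 genes. In this list 5 of 7 had a lower mean in the Trans than in the Saturated group (median -0.10). A lower mean in the Trans than in the Cis group was found in 4 of 7 (median -0.12). The unadjusted p was under 0.05 in 2 of the 7 against Saturated, both lower in Trans (7.32% of all probe sets in either direction). Against Cis it was under 0.05 in 3 of the 7, 2 lower and 1 higher in Trans (6.16% of all probe sets). Colec11, a collectin, had a Trans minus Saturated difference of -0.25 (limma adjusted p = 0.281) and a Trans minus Cis difference of -0.20 (limma adjusted p = 0.67). Lrat, which makes retinyl esters for storage, had -0.25 and -0.28 (limma adjusted p = 0.623 and 0.764), and Pdgfrb, a growth factor receptor, was the 1 gene of these 3 that was higher in Trans than in Cis, with 0.29 (limma adjusted p = 0.792). The tissue label was borne out by 9 hepatocyte genes, all with a signal over 20, such as Fgb with signals of 4189 to 4958 in the Saturated group. Their mean had r = 0.123 with the mean of the markers. All 9 had a lower mean in Trans and in Cis than in Saturated, with medians of -0.05 and -0.04 against -0.23 and -0.22 for the markers. The hepatocyte mean also varied less, with SDs within diets of 0.04 to 0.06 against 0.33 to 0.38 for the mean of the markers. In each of these 2 comparisons 2 of the 9 had an unadjusted p under 0.05 (7.32% and 6.57% of all probe sets), against 1 and 0 of the 10 markers.

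**Figure D4:**
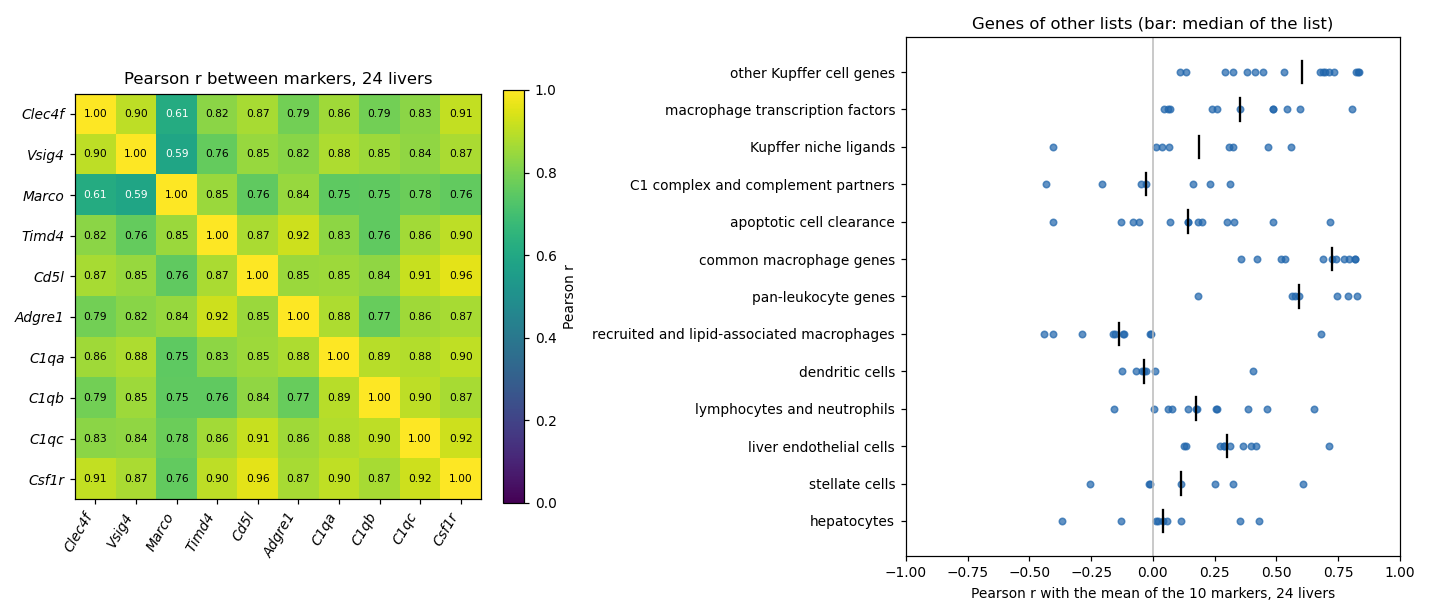
Left, Pearson's r between the 10 markers over 24 livers with diet means taken off (color and number). Right, r of each gene of the 13 other lists with the mean of the 10 markers (horizontal axis), where a point is a gene and the bar is the median of its list. Common macrophage genes lie to the right and other Kupffer cell genes spread from 0.108 to 0.835, while hepatocyte, dendritic cell and complement partner genes lie around 0.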

How the data were processed

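RNA of 24 livers was measured on Affymetrix Mouse Gene 1.1 ST arrays. The authors normalized the arrays by RMA, which corrects background, normalizes by quantiles and summarizes probes, and the deposited table holds log2 values (0.309 to 13.46) for 35556 probe sets. By a table of platform annotation, 21218 probe sets name 1 gene, 1881 several and 12457 none, and for genes with several probe sets (1386 of 18820) the set with the highest mean was taken. Signals are the antilogs of these values. RMA pulls arrays to 1 distribution, so a shift shared by most genes would not be seen. No value was filtered out of the main fit.

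The values were analyzed in R 4.3.3 with limma 3.58.1 (lmFit, eBayes without trend), with the 3 diets and all 24 livers in 1 fit (21 residual degrees of freedom). Tests were two-sided, p-values were adjusted by Benjamini-Hochberg over all probe sets in each comparison, and the threshold was 0.05. The procedure was tested on simulated data. Correlations and figures were computed in Python 3.11.15 with NumPy 2.4.6 and SciPy 1.17.1. The number of arrays limits the precision, and p-values measure the spread between mice. Replicate numbers did not pair livers across diets.

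The markers and the 13 other lists were chosen with earlier results of these data known. From each other list, up to 4 genes with the smallest F-test p were eligible to be named, together with genes needed to describe levels, and the 10 genes of most similar pattern were taken among those with a signal over 20. Listed genes without a single-gene probe set (11) were not analysed here. The promoter table lacked Adgre1 and C1qa, and no sequence of Csf1r is shown. Alternatives were array weights, a replicate block, eBayes with trend and robust, a fit of only the compared groups, renewed quantile normalization, median centring, a signal over 20, the mean of all probe sets of a gene, the Tukey test of the methods, leaving out Trans replicate 4 and Cis replicate 8, and leaving out each liver in turn. Leaving out Saturated replicate 6 in the correlations, and the count of markers with a higher mean, were chosen after seeing the data.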

Additional observations from a re-analysis of the deposited data

Results flagged for a closer look

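Of 30 groups of 8 livers (10 markers in 3 diets), 3 had a liver that stood apart, with a gap to the next liver that, as a share of the whole range on the log2 scale, was over Dixon's critical value at the 95% level. Chance flags about 1 in 20 groups, and the markers vary together, so that the groups are not independent. Marco in Saturated replicate 6 had a signal of 109, with 29.0 in the next liver and a gap of 0.629 of the range. Adgre1 in the same liver had a signal of 173, with 90.4 in the next liver and a gap of 0.536 of the range. Cd5l in Saturated replicate 5 had a signal of 150, with 215 in the next liver and a gap of 0.551 of the range. All 3 were in the Saturated group, at its highest and its lowest liver by the mean of the markers.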

How the results depend on the processing

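Over 30 differences of single markers and 34 settings, 986 of 1020 values kept their direction and 34 in 7 differences did not, none of them past the threshold. Many of the values could not change direction. The difference stays the same with a replicate block, eBayes with trend and robust or a fit of only the compared groups. It also stays the same with a signal over 20, the mean of all probe sets (1 for each marker) or the Tukey test. Leaving out a liver of the diet that is not compared does not change it either. The count of markers called was 0 in all settings, with a lowest adjusted p of 0.423. Few probe sets were called in any setting, at most 16 of 35556 (Trans minus Saturated without Saturated replicate 2). For Trans minus Saturated, the count at unadjusted p under 0.05, 1 in the full fit, was 2 with a replicate block, eBayes with trend and robust, a fit of only the compared groups, renewed quantile normalization, a signal over 20 or the mean of all probe sets, 3 with array weights or without Trans replicate 4 and Cis replicate 8, 0 with the Tukey test, and 0 to 5 with each liver left out. The share of all probe sets at this level was 3.32% with the Tukey test and 8.11% with array weights. It was 7.01% without Trans replicate 4 and Cis replicate 8, and 10.3% of 12854 probe sets with a signal over 20. In the other settings with a count of 2 it was 7.31% to 8.69%. Same-numbered livers did not deviate together (r from -0.0682 to 0.0883), and the replicate block changed no other count of markers. The count of markers with a higher mean in that comparison was 0 with array weights and without both of these livers, and 0 to 1 with each liver left out. With each liver left out, it was 2 to 8 for Trans minus Cis, and the count at unadjusted p under 0.05 was 0 to 2 for Cis minus Saturated (2 without Cis replicate 3 or Saturated replicate 5). Of all probe sets, 6.19% and 6.16% were under 0.05 without these 2 livers in turn.

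Marco changed sign in Trans minus Saturated, to -0.0651 without both livers and -0.0177 with array weights, and ran from -0.0885 to 0.35 with each liver left out. C1qb changed sign in Trans minus Cis, to -0.0563 without both livers, -0.0454 with array weights, -0.00269 with renewed quantile normalization and -0.00609 with median centring. With each liver left out, Trans minus Cis ran from -0.17 to 0.0052 for Clec4f, -0.11 to 0.025 for Vsig4, -0.14 to 0.0411 for Cd5l, -0.0563 to 0.12 for Adgre1, -0.10 to 0.00974 for C1qa and -0.0527 to 0.0618 for C1qb. The causes were not tested. Signal over background limits Marco, as its signal was under 20 in some livers of each diet.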
